A study of Sus scrofa with 16 samples.

Results

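Interleukins and chemokines are the secreted messengers by which immune cells, endothelium and fibroblasts signal to each other, and their receptors set which cells respond. The genes described here are those whose platform gene symbol begins with IL, CCL, CCR, CXCL or CXCR followed by a digit, together with PTX3. They came to 58 genes of the 6765 with a single symbol on the array, read by 68 probe sets, and each gene was followed through its brightest probe set over the 16 arrays. They comprised 12 CC chemokines, 7 CXC chemokines, 7 chemokine receptors, 18 interleukins, 13 interleukin receptors or inhibitors, and PTX3. A further 2 probe sets that carried a member's symbol beside another gene's were left out.

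Transcript signals were measured in left ventricular myocardium of Yorkshire x Landrace pigs aged 2 to 3 months, with 1 Affymetrix porcine array per animal. The 8 exercise-trained pigs (Ex 1 to 8) and the 8 sedentary pigs (Sed 1 to 8) each comprised 4 females and 4 castrated males. The hearts were sampled once the protocol had run for 4 to 5 weeks, and the kind and amount of exercise are not given in the sources used here. All groups share breed cross and age, and every male was neutered, so intact males are not represented.

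CXC and CC chemokines differ in the spacing of their first cysteines. Both bind G protein-coupled receptors, with CXC chemokines such as CXCL2 and CXCL8 drawing mainly neutrophils and CC chemokines such as CCL2 drawing mainly monocytes and lymphocytes. Interleukins act mostly through receptors coupled to JAK kinases and STAT factors, or, for the interleukin 1 family, through MYD88 and NF-kB. PTX3 is a long pentraxin, a soluble pattern recognition protein that binds microbes and complement components and that endothelial cells, macrophages and fibroblasts make in response to interleukin 1 and other inflammatory stimuli.

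Facts of the arrays that bear on these genes were as follows. All 10 cardiomyocyte markers of the list used were measured, at mean signals of 8.62 to 14.61 log2. By the signal of their bacterial poly-A spike-in controls the arrays fell into 2 sets unnamed in the labels, at 7.22 to 8.20 log2 on 11 arrays (set A, 6 exercised and 5 sedentary) and 5.81 to 6.31 on 5 arrays (set B, 2 exercised and 3 sedentary). Set B held Ex 7, Ex 8, Sed 6, Sed 7 and Sed 8, with a single female, Sed 8. On Ex 7 and Sed 1 a group of chemokines stood far above all other arrays, as described below, and results are also given without these animals. The table holds no detection calls, so it is not known which dim probe sets were above background.

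Training was compared by a limma model over all 23935 probe sets, with the effect averaged over females and castrated males and Benjamini-Hochberg adjusted p under 0.05 as the threshold. Of the 58 genes, 3 rose, 6 fell and 49 did not pass. The 9 calls are 15.5% of the members, against 10.0% of all 6765 genes on their brightest probe sets, where 5.11% rose and 4.91% fell, and 13.4% of all probe sets tested. The median difference was -0.01 log2 over the members and 0.01 over all genes. The rises were all CC chemokines, CCL27, CCL3L1 and CCL28, and the falls were PTX3, the CXC chemokine CXCL14, the interleukins IL17B and IL12B, and the receptors IL12RB2 and IL7R.

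The calls lay among dim probe sets, where calls were also frequent over all genes. At or below the 40th percentile of signal, 5.57 log2, lay 30 members, of which 6 passed (20%, against 24.4% of all genes there). Between the 40th and 60th percentiles 3 of 10 members passed (30%, against 15% of genes). Above the 60th percentile, 6.88 log2, none of 18 members passed, against 4.36% of genes. The plot of difference against level shows this.

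**Figure D1:**
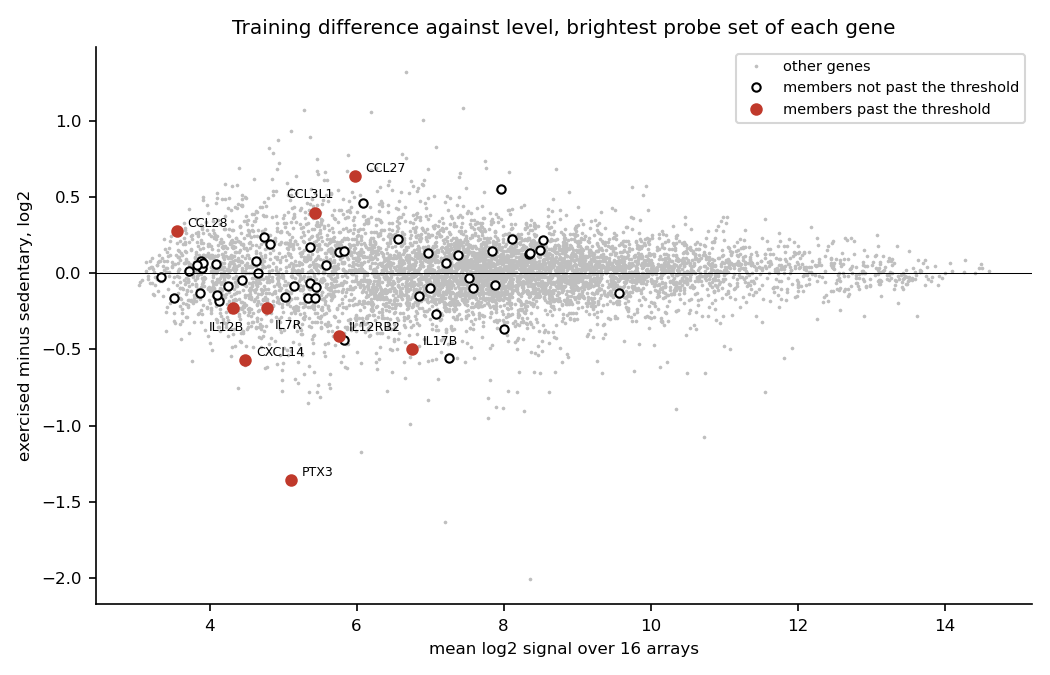
Difference between exercised and sedentary pigs (log2, vertical) against mean log2 signal over the 16 arrays (horizontal) for the brightest probe set of each of 6765 genes. Red points are the 9 members past the threshold, open points the other 49 members and grey points all other genes; every red point lies below 6.88 log2.

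CCL27, a chemokine best known from skin, where it draws CCR10-bearing T cells, separated the groups completely. Its signal ran from 6.13 through a median of 6.27 to 6.50 log2 in exercised pigs, against 5.49 through 5.66 to 5.83 in sedentary pigs. The lowest exercised animal was above the highest sedentary one. The difference was 0.64 log2 (SE 0.0646, adjusted p = 3.13e-05 by limma), a 1.56-fold rise. It was 0.67 in set A and 0.54 in set B, both plain differences of group means. CCL27 was the only member whose groups did not overlap, 1 of 58, against 2.23% of all genes.

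CCL3L1, a member of the macrophage inflammatory protein group of chemokines, ran from 5.44 through 5.61 to 6.12 log2 in exercised pigs, against 5.07 through 5.21 to 5.54 in sedentary pigs. It rose by 0.40 log2 (SE 0.0948, adjusted p = 0.0121 by limma), and all 8 exercised animals lay above the sedentary mean, although Sed 6 was above 3 of them. In human this gene has near-identical copies, and whether the probes tell copies apart was not tested.

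CCL28, a mucosal chemokine that shares the receptor CCR10 with CCL27, had a dimmer signal of 3.37 through 3.68 to 3.99 log2 in exercised pigs, against 3.35 through 3.42 to 3.50 in sedentary pigs. Only Ex 8, the lowest exercised animal, lay among the sedentary values. The rise was 0.27 log2 (SE 0.0725, adjusted p = 0.0203 by limma). Without both Ex 7 and Sed 1 it was 0.24 and no longer passed (adjusted p = 0.0516), and Ex 7 had the highest CCL28 signal of the 16 arrays. CCR10 is not among the 7 chemokine receptors measured.

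The other 9 CC chemokines did not pass, with differences from -0.36 to 0.46 log2. CCL24, an eosinophil attractant also called eotaxin 2, averaged 7.82 ± 0.35 log2 in exercised and 8.19 ± 0.70 in sedentary pigs (SD, n = 8; difference -0.36, limma adjusted p = 0.221). It passed within set A at -0.64 (adjusted p = 0.0332) without Sed 8 at -0.51 (adjusted p = 0.0228) and with array weights at -0.47 (adjusted p = 0.0336). The T cell attractant CCL5 averaged 8.42 ± 0.35 log2 in exercised and 8.29 ± 0.38 in sedentary pigs (95% interval of the difference -0.21 to 0.48). CCL25, which guides T cells to gut and thymus, differed by -0.08 (interval -0.29 to 0.13). For CCL2 and CCL8, which attract monocytes, the intervals were -1.33 to 1.59 and -0.77 to 1.70, the widest of the CC chemokines.

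**Figure D2:**
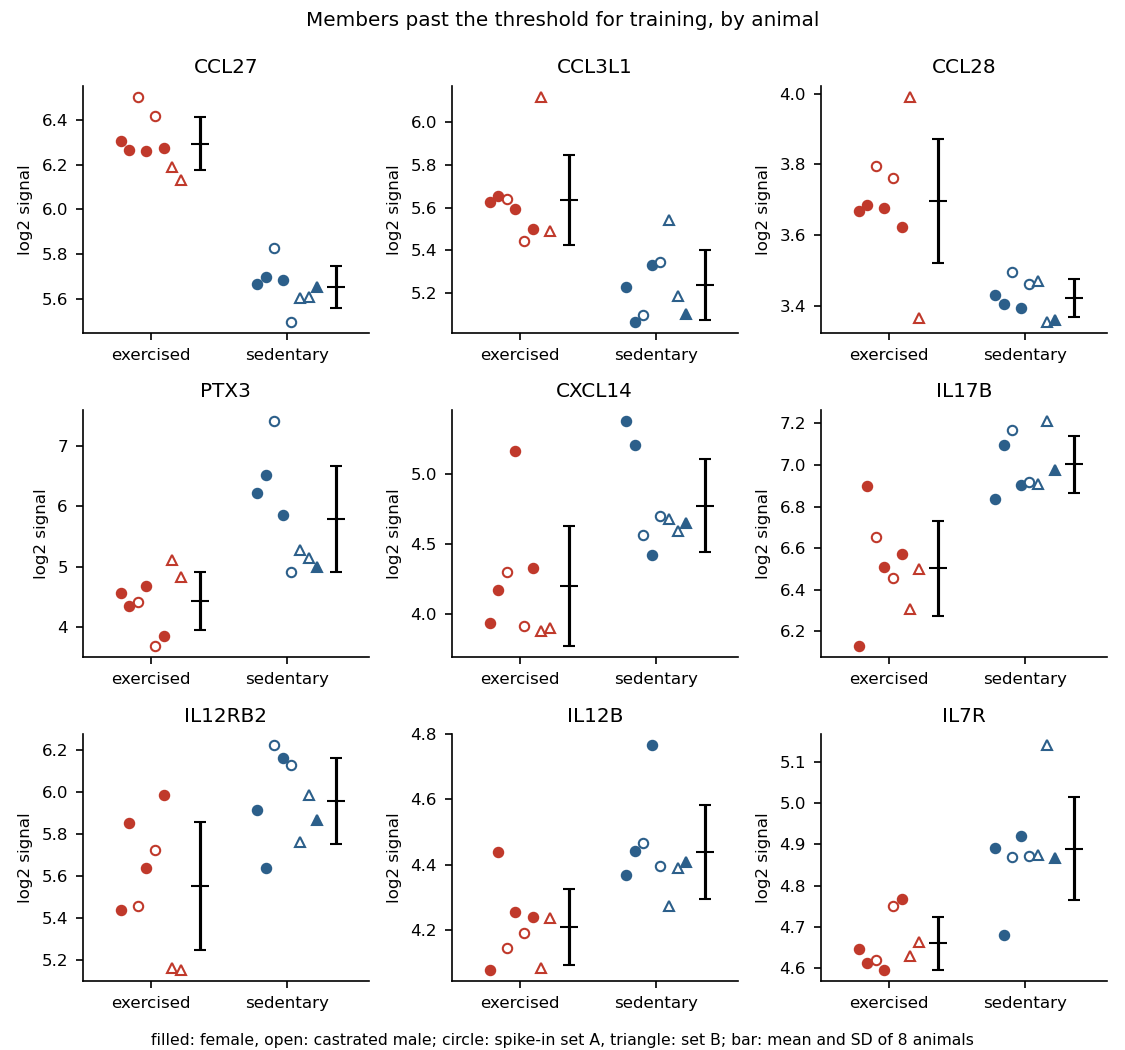
Log2 signal of the 9 members past the threshold, with a point per animal; exercised pigs are left and sedentary pigs right in each panel. Filled points are females, open points castrated males, circles spike-in set A and triangles set B, and bars give mean and SD of 8 animals; only CCL27 shows groups without overlap.

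PTX3 had the largest difference of the 58 genes. Its signal ran from 3.69 through 4.49 to 5.11 log2 in exercised pigs, against 4.91 through 5.56 to 7.40 in sedentary pigs. All 8 exercised animals were below the sedentary mean, and the groups overlapped only because Ex 7, at 5.11, lay above Sed 5 and Sed 8. PTX3 fell by 1.36 log2 (SE 0.335, adjusted p = 0.0142 by limma), a 2.56-fold difference with a 95% interval of -2.07 to -0.64. Leaving out any single animal gave -1.51 to -1.07 with an adjusted p of at most 0.0321. As in any bulk tissue, fewer cells of a type and less RNA per cell cannot be told apart.

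The size of the PTX3 difference was not even over the arrays. In set A the exercised mean was 4.26 and the sedentary mean 6.18 log2, a difference of -1.92. In set B the exercised mean was 4.97 and the sedentary mean 5.14, a difference of -0.17. In a limma model with sex as a term, which gives slightly other values than these plain means, the effect in set B minus that in set A was 1.79 log2 (unadjusted p = 0.00846, limma adjusted p = 0.602 over all probe sets), and with the set as a block PTX3 passed at an adjusted p of 0.00988. The sedentary animals with the highest values, Sed 3 at 7.40, Sed 2 at 6.51, Sed 1 at 6.22 and Sed 4 at 5.85, were all in set A.

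The second PTX3 probe set gave another picture. On it PTX3 averaged 4.71 ± 0.22 log2 in exercised and 4.49 ± 0.56 in sedentary pigs, a difference of 0.22 that did not pass (limma adjusted p = 0.559). Sed 3 was highest there too, at 5.70, and in set B the 2 exercised animals, at 4.71 and 5.03, lay above all 3 sedentary ones, at 4.02 to 4.07. The mean of both probe sets differed by -0.57 and did not pass (adjusted p = 0.182). The fall therefore rests on the brighter probe set, as the plot of both shows.

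**Figure D3:**
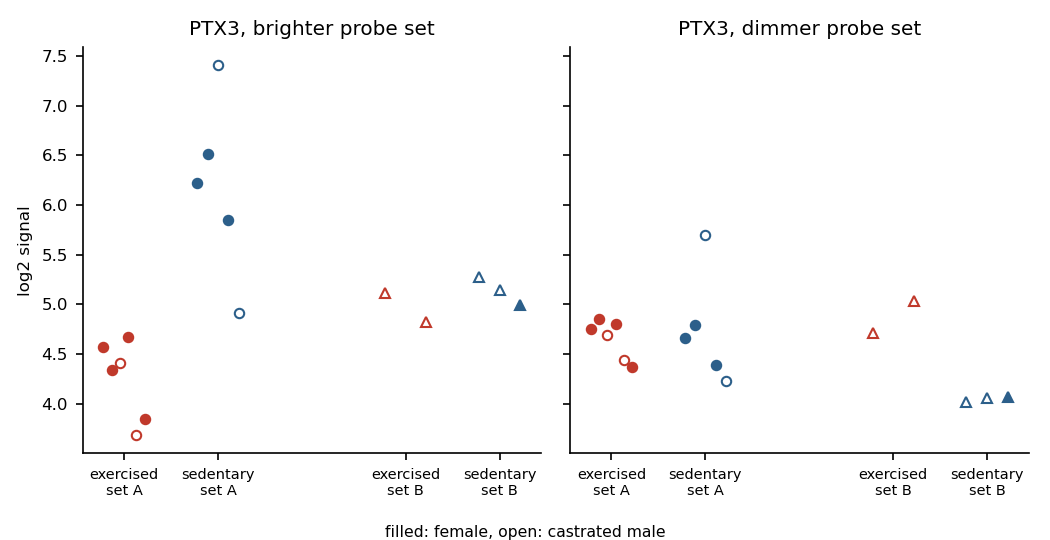
Log2 signal of PTX3 on its brighter (left) and dimmer (right) probe set, with a point per animal, for exercised and sedentary pigs of spike-in set A and then set B. On the brighter probe set the set A means are 4.26 and 6.18 log2 in exercised and sedentary pigs, and the set B means 4.97 in exercised and 5.14 in sedentary pigs.

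Among CXC chemokines 1 of 7 passed. CXCL14, a chemokine of epithelia and fibroblasts that attracts monocytes and dendritic cells, ran from 3.88 through 4.06 to 5.16 log2 in exercised pigs, against 4.42 through 4.66 to 5.37 in sedentary pigs. Ex 4 was the exception, at 5.16, while the other exercised animals all lay below the lowest sedentary one. CXCL14 fell by 0.57 log2 (SE 0.165, adjusted p = 0.0318 by limma). The call was narrow. It was lost on leaving out any of Ex 1, 2, 5, 6, 7 and 8 or Sed 1, 2, 5 and 6, with differences of -0.57 to -0.50 and adjusted p up to 0.0677. Its second probe set differed by 0.16 and did not pass (adjusted p = 0.326), and the mean of both differed by -0.21 (adjusted p = 0.321).

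The remaining CXC chemokines did not pass. CXCL9, an interferon-induced attractant of T cells, averaged 8.24 ± 0.73 log2 in exercised and 7.69 ± 0.98 in sedentary pigs (difference 0.55, limma adjusted p = 0.436). CXCL12, the ligand of CXCR4 that retains stem cells and guides vessel growth, differed by -0.09 (95% interval -0.42 to 0.23). The B cell attractant CXCL13 differed by -0.15 (interval -0.35 to 0.04) and CXCL16, the ligand of CXCR6, by 0.14 (interval -0.18 to 0.45). For the neutrophil attractants CXCL2 and CXCL8 the intervals were wide, at -1.87 to 0.75 and -0.95 to 0.99.

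None of the 7 chemokine receptors passed, with differences from -0.16 to 0.24 log2. CCR7, which guides lymphocytes and dendritic cells to lymph nodes, averaged 4.86 ± 0.17 log2 in exercised and 4.62 ± 0.16 in sedentary pigs (difference 0.24, limma adjusted p = 0.0706). It passed without Ex 8 at 0.28 (adjusted p = 0.0279) and without Sed 3 at 0.27 (adjusted p = 0.0434). CCR2, the receptor of CCL2 on monocytes, differed by 0.18 (adjusted p = 0.183) and passed only without Sed 5, at 0.23 (adjusted p = 0.0458). The eosinophil receptor CCR3 differed by -0.09, the gut-homing receptor CCR9 by -0.16, and CXCR4 by 0.07 with an interval of -0.34 to 0.48.

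**Figure D4:**
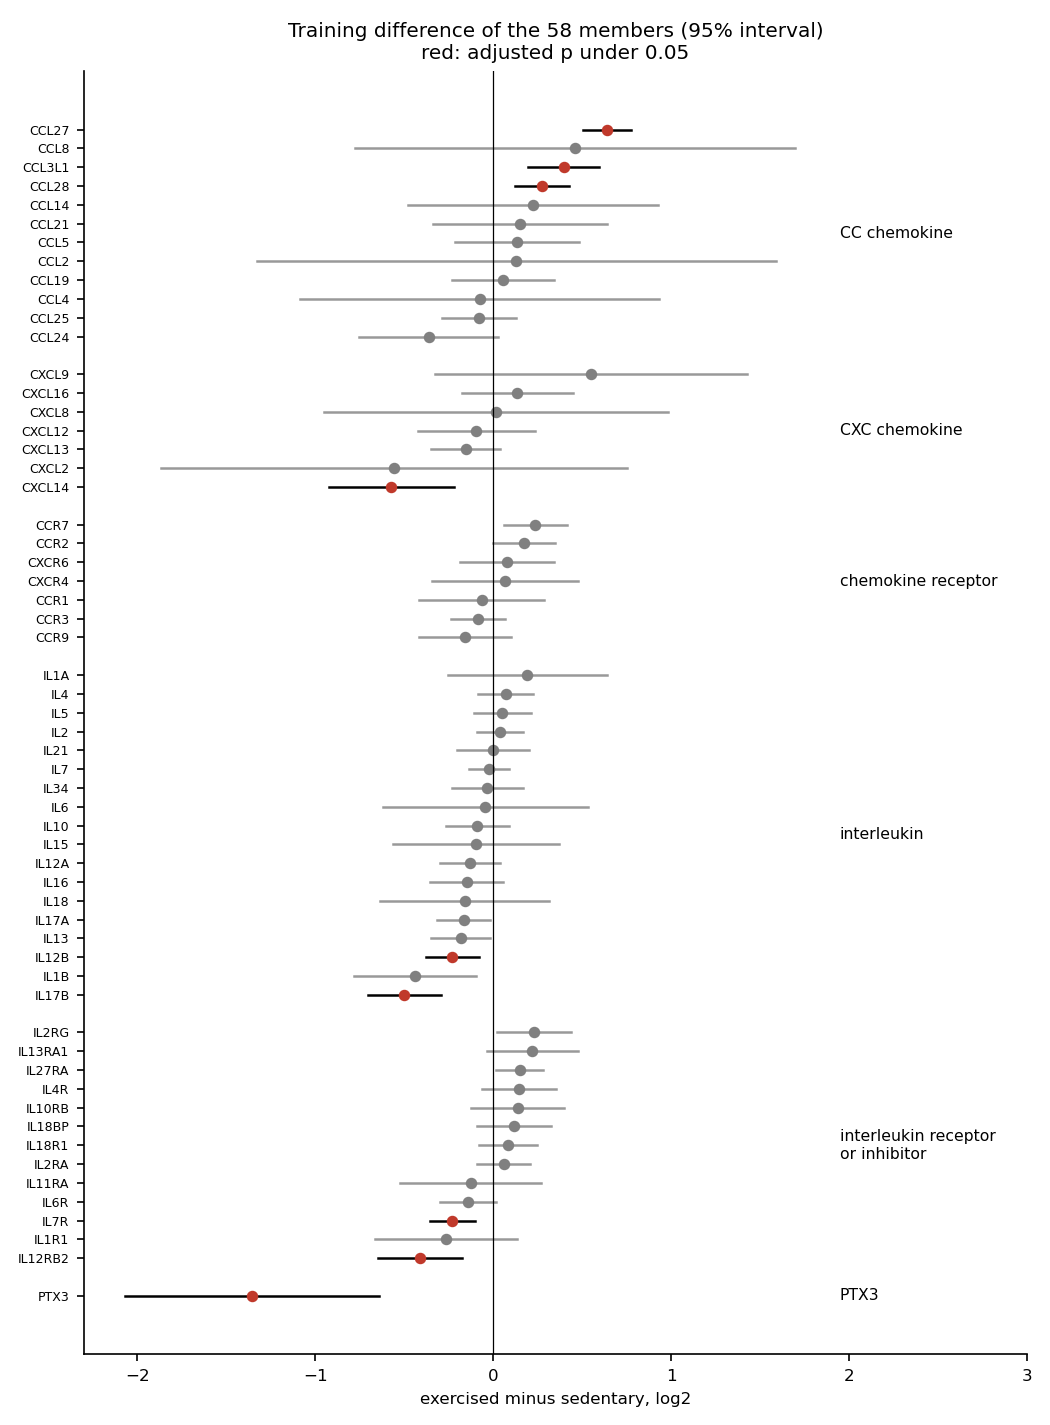
Difference between exercised and sedentary pigs (log2, horizontal) for the brightest probe set of each of the 58 genes, by role, with 95% intervals; red points passed an adjusted p of 0.05. The intervals of CCL2, CCL8, CXCL2 and CXCL8 are wide, with those of CCL2 from -1.33 to 1.59.

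Of 18 interleukins none rose, 2 fell and 16 did not pass. IL17B, a member of the interleukin 17 family that signals through IL17RB, ran from 6.13 through 6.50 to 6.90 log2 in exercised pigs, against 6.84 through 6.95 to 7.21 in sedentary pigs. The groups overlapped only at Ex 2, at 6.90. IL17B fell by 0.50 log2 (SE 0.0965, adjusted p = 0.00321 by limma), with -0.45 in set A, where it did not pass on its own (adjusted p = 0.0511), and -0.63 in set B. A second probe set of IL17B fell as well, by 0.23 (adjusted p = 0.0246). The third and dimmest one differed by 0.69 the other way, averaging 4.94 ± 0.72 log2 in exercised and 4.25 ± 0.32 in sedentary pigs (unadjusted p = 0.0209, adjusted p = 0.106). The mean of all 3 differed by -0.01 and did not pass (adjusted p = 0.965).

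IL12B encodes the p40 chain shared by interleukins 12 and 23, which drive T helper cell responses. It ran from 4.08 through 4.21 to 4.44 log2 in exercised pigs, against 4.27 through 4.40 to 4.77 in sedentary pigs. Ex 2 alone lay within the sedentary range. IL12B fell by 0.23 log2 (SE 0.0696, adjusted p = 0.0395 by limma). That call held on leaving out Ex 2, Ex 8, Sed 1, Sed 6 or Sed 8 and was lost on leaving out any of the other 11 animals, with differences of -0.24 to -0.19 and adjusted p up to 0.0829. IL12A, the p35 chain of interleukin 12, differed by -0.13 (95% interval -0.30 to 0.04).

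Among the interleukins that did not pass, IL1B came closest. This inflammasome-released cytokine ran from 5.37 through 5.56 to 6.04 log2 in exercised pigs, against 5.69 through 5.90 to 7.07 in sedentary pigs, and all 8 exercised animals were below the sedentary mean. The difference was -0.44 (limma adjusted p = 0.0876). It passed without Sed 8 at -0.52 (adjusted p = 0.0372) and without both Ex 7 and Sed 1 at -0.36 (adjusted p = 0.0228). The dimmer IL1B probe set differed by -0.15 (adjusted p = 0.425). The T helper cytokines IL13 and IL17A differed by -0.18 and -0.17, with adjusted p of 0.136 and 0.141. The anti-inflammatory IL10 differed by -0.09 (interval -0.27 to 0.09) and IL15, a growth factor of natural killer and memory T cells that muscle also makes, by -0.09 (interval -0.56 to 0.37).

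Interleukin receptors and inhibitors numbered 13, of which none rose, 2 fell and 11 did not pass. IL12RB2, the signalling chain of the interleukin 12 receptor, ran from 5.15 through 5.55 to 5.99 log2 in exercised pigs, against 5.64 through 5.95 to 6.22 in sedentary pigs. The groups overlapped broadly, with Ex 7 and Ex 8 lowest. IL12RB2 fell by 0.41 log2 (SE 0.111, adjusted p = 0.0233 by limma), and the call was lost without Ex 1 at -0.36 (adjusted p = 0.0509). Without both Ex 7 and Sed 1 it was -0.37 (adjusted p = 0.0751).

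IL7R, the interleukin 7 receptor chain on which lymphocyte survival depends, ran from 4.59 through 4.64 to 4.77 log2 in exercised pigs, against 4.68 through 4.87 to 5.14 in sedentary pigs. All 8 exercised animals were below the sedentary mean, and Sed 2, at 4.68, was the only sedentary animal within the exercised range. IL7R fell by 0.23 log2 (SE 0.0597, adjusted p = 0.0188 by limma) and did not pass without both Ex 7 and Sed 1, at -0.21 (adjusted p = 0.0648), nor within set A, at -0.18 (adjusted p = 0.137). Of 8 T and B cell markers measured, 2 rose and 6 did not pass. CD3G, a chain of the T cell receptor complex, rose by 0.56 (adjusted p = 0.0155) and CD79B of the B cell receptor by 0.26 (adjusted p = 0.0126). Both lay below 5.57 log2, where 24.4% of all genes passed, against 10.0% of genes at any level. CD4 alone among the 8 went the other way, at -0.37, without passing (adjusted p = 0.0618). The mean level of the list relative to its mean over the arrays ran from -0.11 to 0.39 log2 in exercised and from -0.59 to 0.11 in sedentary pigs (exact permutation p = 0.0945, 0.661 adjusted over 14 measures). The part of lymphocyte content in the IL7R result was not tested.

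IL2RG, the common gamma chain of several interleukin receptors, averaged 6.67 ± 0.19 log2 in exercised and 6.44 ± 0.20 in sedentary pigs, with all 8 exercised animals above the sedentary mean (difference 0.23, limma adjusted p = 0.144). It passed without Sed 1 at 0.30 (adjusted p = 0.0282) and without both Sed 1 and Ex 7 at 0.25 (adjusted p = 0.0391). IL27RA, a receptor chain for interleukin 27, differed by 0.15 (adjusted p = 0.128) and IL13RA1, which binds interleukin 13, by 0.22 (adjusted p = 0.259), each with 8 of 8 exercised animals above the sedentary mean. IL6R differed by -0.14 (95% interval -0.30 to 0.02).

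Several of the widest-ranging chemokines were high in the same pair of animals, 1 of each group, of which Ex 7 was in spike-in set B and Sed 1 in set A. CXCL8, the main neutrophil attractant, had 6.05 log2 in Ex 7 and 6.40 in Sed 1, against 3.16 to 3.62 in the other 7 exercised pigs and 3.09 to 3.58 in the other 7 sedentary pigs. CCL4, a partner of CCL3 in the macrophage inflammatory protein group, had 10.00 in Ex 7 and 10.80 in Sed 1, with 7.23 to 7.75 in the other exercised and 7.20 to 7.80 in the other sedentary pigs. No other animal came near these values.

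CCL2 was at 11.67 log2 in Ex 7 and 11.46 in Sed 1, with 6.49 to 9.29 in the other exercised and 7.25 to 8.57 in the other sedentary pigs. CCL8 was at 9.09 in Ex 7 and 8.53 in Sed 1, with 5.15 to 7.35 in the other exercised and 5.02 to 6.25 in the other sedentary pigs. CXCL2 was at 10.40 in Ex 7 and 9.62 in Sed 1, with 5.46 to 8.10 in the other exercised and 5.84 to 8.57 in the other sedentary pigs. These 5 chemokines with IL1A and IL2RG made 7 of the 58 members (12.1%) whose 2 highest values were on those arrays, against 56 of all 6765 genes (0.828%). The arrays were singled out after these values were seen, so the shares are a description.

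The pair differed in IL6, IL18 and IL1B. IL6, the main inducer of the acute phase response, was at 6.40 log2 in Ex 7 and 4.54 in Sed 1, with 3.78 to 4.38 in the other exercised and 4.15 to 4.76 in the other sedentary pigs, so only Ex 7 stood out. Within set A, which does not hold Ex 7, IL6 differed by -0.42 between exercised and sedentary pigs (limma adjusted p = 0.0462), against -0.04 over all arrays (adjusted p = 0.944). IL18 and IL1B were highest in Sed 1, at 6.83 and 7.07, with 5.78 and 6.04 in Ex 7. PTX3 was not highest in either animal, at 5.11 in Ex 7 and 6.22 in Sed 1.

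**Figure D5:**
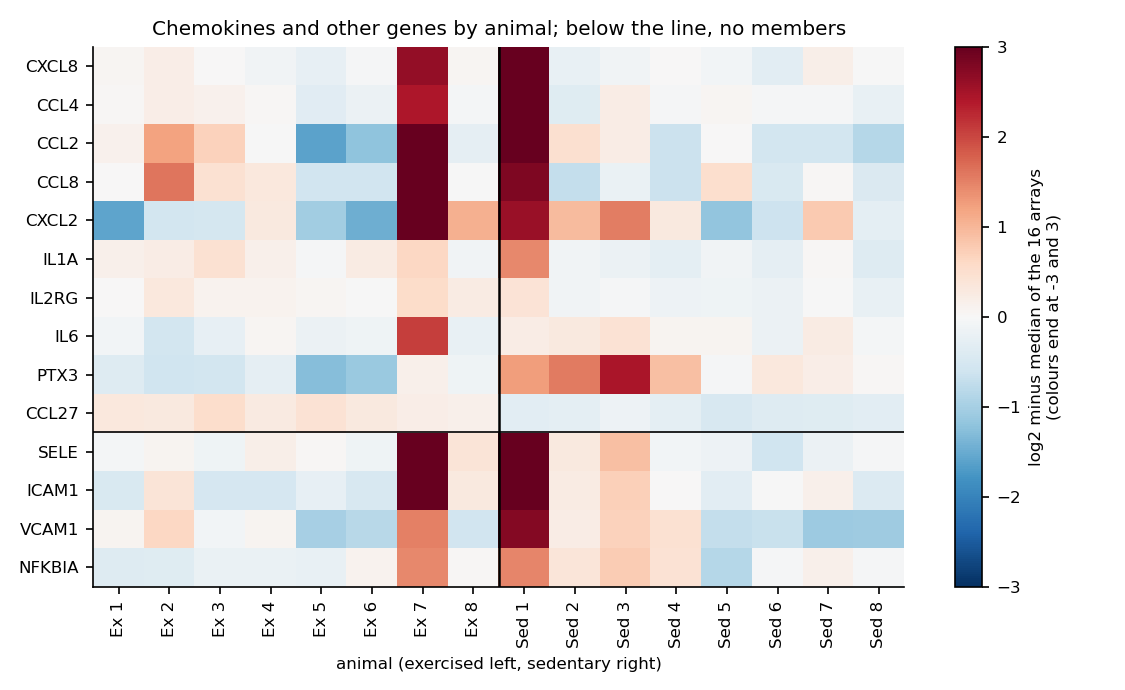
Signal of each gene minus its median over the 16 arrays (log2, colour) for 10 members and, below the line, 4 other genes, by animal with exercised pigs left of sedentary pigs. Ex 7 and Sed 1 are dark red for CXCL8, CCL4, CCL2, CCL8, CXCL2, SELE and ICAM1, while CCL27 separates the groups and PTX3 is high in Sed 1 to 4.

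Of 9 endothelial adhesion genes measured, SELE, ICAM1 and VCAM1 were high in the same pair. SELE, the E-selectin gene, was at 9.52 log2 in Ex 7 and 9.69 in Sed 1 and between 3.22 and 4.72 in the other 14 animals. ICAM1 was at 11.33 in Ex 7 and 11.86 in Sed 1 and at 8.77 or less in the others. VCAM1 was at 11.86 in Ex 7 and 13.11 in Sed 1, with Sed 3 next at 11.04. The rest of that list ranged less. SELP ran from 5.22 to 5.64 in exercised and 5.06 to 5.59 in sedentary pigs. ICAM2 ran from 7.59 to 8.01 in exercised and 7.36 to 8.16 in sedentary pigs. The NF-kB inhibitor gene NFKBIA, itself a target of NF-kB, was at 11.49 in Ex 7 and 11.52 in Sed 1, with Sed 3 next at 10.81. The mean level of 6 neutrophil markers relative to the mean over the arrays was 0.13 log2 in Ex 7 and 0.68 in Sed 1, against -0.29 to 0.11 elsewhere. Most of the Sed 1 value came from S100A9, at 8.06 log2 in Sed 1, 4.49 in Ex 7 and 3.77 to 4.71 in the others. Without S100A9 the list was at 0.14 in Ex 7 and 0.09 in Sed 1, against -0.25 to 0.11 in the others. That of 7 macrophage markers was -0.15 in Ex 7 and 0.32 in Sed 1, within the range of the other arrays. Their part in the chemokine values was not tested.

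Without both animals, a setting chosen after the values were seen, the differences of CXCL8, CCL4 and CCL2 were 0.06, 0.04 and 0.10 log2, with adjusted p of 0.72, 0.835 and 0.914 by limma. Their standard deviation over the arrays left was 0.15 for CXCL8, 0.18 for CCL4 and 0.75 for CCL2, against 0.99, 1.01 and 1.44 over all 16. Of the 9 training calls, CCL27, CCL3L1, IL17B and PTX3 still passed. CCL28, CXCL14, IL12B, IL12RB2 and IL7R kept their sign without passing. IL1A, IL1B and IL2RG passed newly, IL1A at 0.34 (adjusted p = 0.033). Over all 16 arrays IL1A differed by 0.19 (adjusted p = 0.622) and its second probe set by -0.27 (adjusted p = 0.507), neither passing. On that second probe set Sed 1 was at 6.09 log2, against 3.84 to 4.33 in the other sedentary pigs. Its difference without both animals is not given here.

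The training effect was also taken in each sex. In females CCL27 alone passed, at 0.60 log2 (adjusted p = 0.00314), so 1 of 58 members (1.72%) against 2.60% of all genes. In castrated males CCL27 passed at 0.68 (adjusted p = 0.0015), IL17B at -0.57 (adjusted p = 0.0294) and IL12RB2 at -0.65 (adjusted p = 0.0306), 3 members (5.17%) against 2.57% of genes. The difference of the effects, females minus males, passed for 0 of 58 members and 0 of 6765 genes by limma. At an unadjusted p under 0.05 it held 2 members (3.45%), against 2.47% of genes. These were IL12RB2, at -0.17 in females and -0.65 in males (unadjusted p = 0.0437), and the inflammasome product IL18, at -0.65 in females and 0.33 in males (unadjusted p = 0.0443). For IL18 Sed 1, a female, was at 6.83 log2, against 5.44 to 5.77 in the other sedentary females. Ex 3, a male, was the highest exercised animal for IL18, at 6.23. CXCL2 differed by -1.71 in females and 0.59 in males (unadjusted p = 0.0813), with Sed 1 a female and Ex 7 a male.

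Between females and castrated males, averaged over training, 0 of 58 members passed by limma, against 0.0739% of all genes, and 8 (13.8%) had an unadjusted p under 0.05, against 10.4% of genes. CCL24 averaged 8.02 ± 0.21 log2 in exercised females and 8.69 ± 0.61 in sedentary females, and 7.63 ± 0.38 in exercised and 7.69 ± 0.33 in sedentary males (SD, n = 4 each). Females were 0.69 log2 higher (unadjusted p = 0.00174, adjusted p = 0.511). IL11RA, the interleukin 11 receptor chain, differed by -0.59 log2, females minus males, and IL10RB, a chain of the interleukin 10 receptor, by 0.35. Neither passed (limma adjusted p = 0.537 for both). Spike-in set B held a single female, Sed 8, and the contrast of the sexes had no term for the set. In set A IL11RA averaged 9.30 log2 in exercised and 9.28 in sedentary pigs. In set B it averaged 10.10 in exercised and 10.22 in sedentary pigs, and Sed 8, at 10.26, was the highest of the 16 animals. The part of the set in the values by sex was not tested.

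The wider pathways were read from lists of named genes, beside 10.0% of all 6765 genes that passed for training. Of 57 listed genes of cytokine signalling 26 were measured, and none passed for training by limma, with a median difference of -0.03 log2. They included the kinase gene JAK1 at 0.05, STAT3 at 0.01, SOCS3, a feedback inhibitor of interleukin 6 signalling, at -0.13, MYD88 at 0.12 and NFKBIA at -0.26. Of 9 endothelial adhesion genes none passed either, with SELE at 0.005 and VCAM1 at -0.09.

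Of 7 other chemokines and atypical receptors measured, 1 rose, 1 fell and 5 did not pass. PPBP, a platelet chemokine, rose by 0.25 log2 (adjusted p = 0.0391 by limma) and XCR1, a receptor of cross-presenting dendritic cells, fell by 0.35 (adjusted p = 0.0428). Of 20 pentraxins and other soluble or membrane pattern recognition genes 1 rose, 1 fell and 18 did not pass. Over all genes 10.0% passed, and 24.4% of those at or below 5.57 log2, where PPBP and FCN1 lay. FCN1, a lectin of monocytes that activates complement, averaged 4.01 ± 0.17 log2 in exercised and 4.76 ± 0.23 in sedentary pigs, a fall of 0.75 (adjusted p = 0.000301). SFTPD, the collectin surfactant protein D, averaged 5.91 ± 0.15 in exercised and 5.39 ± 0.07 in sedentary pigs, a rise of 0.52 (adjusted p = 0.000189). The short pentraxins CRP and APCS differed by 0.11 and 0.04 and did not pass.

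Markers of cells that make or answer these messengers were read beside them. Over all genes 10.0% passed for training, and 24.4% of those at or below 5.57 log2, where ITGAM and S100A8 lay. Of 7 macrophage markers ITGAM rose by 0.54 log2 (adjusted p = 0.00399 by limma) and 6 did not pass. Among these 6, CD14 and CD163 differed by -0.29 and -0.24, and the rest by 0.04 to 0.43. Of 6 neutrophil markers S100A8 rose by 0.49 (adjusted p = 0.0009) and 5 did not pass, with S100A9 at -0.45 and a median of -0.06 over the list. Of 2 mast cell markers MS4A2, a chain of the IgE receptor, fell by 0.56 (adjusted p = 0.0214), and KIT, at 0.17, did not pass (adjusted p = 0.717). All 7 endothelial markers and all 6 fibroblast and smooth muscle markers measured did not pass. List levels relative to their means ran from -0.28 to 0.43 log2 in exercised and -0.48 to 0.32 in sedentary pigs for macrophages, and from -0.43 to 0.30 in exercised and -0.59 to 0.72 in sedentary pigs for mast cells. The smallest exact permutation p over 14 list and array measures was 0.0326, for skeletal muscle markers (adjusted 0.457). The part of these cells in the members' differences was not tested.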

How the data were processed

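Signals were measured on 16 one-channel Affymetrix porcine arrays, with biotin-labelled cRNA per the labels' protocols. The authors deposited log2 signals, 1 per probe set and array; their summarisation and normalization are not given in the sources used here. All arrays had nearly the same distribution, from 2.87 to 14.86, and were used without further normalization. Of 24123 probe sets 188 Affymetrix controls and reporters were left out and 23935 tested. Gene symbols were those of the platform's annotation, some of them old: 10069 probe sets had a single symbol, 198 several and 13668 none. Entrez identifiers tied all 58 members to a RefSeq table (Sscrofa11.1), and 0 symbols changed.

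A limma 3.58.1 model (R 4.3.3) with separate means for the 4 training-by-sex groups gave all contrasts, with 12 residual and 3.50 prior degrees of freedom, two-sided tests and p adjusted by Benjamini-Hochberg over all 23935 probe sets. Every adjusted p is from limma. Fits were tested on simulated data. Two-sided exact permutation tests over 12870 assignments compared marker list levels and array measures between groups. Alternatives were other normalizations, filters on dim probe sets, eBayes settings, array weights, blocks for replicate number and for the spike-in sets, each set alone, no sex term, the mean of a gene's probe sets, and leaving out arrays. The number of arrays limits precision.

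Members, lists, alternatives and tests were chosen with earlier results of these data known. Named are members past the threshold, up to 4 further ones per role with the smallest p, a fixed set of well-known cytokines, the 3 smallest p for each sex contrast, the 3 largest spreads, and genes with probe sets of opposite sign at an unadjusted p under 0.05 on both; CCL4 was added after its values were seen. Leaving out both Ex 7 and Sed 1 was added then too. Plots used Python 3.11.15 and matplotlib 3.10.9.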

Additional observations from a re-analysis of the deposited data

Results flagged for a closer look

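In 15 of 80 groups of 8 animals tested over the 40 named genes, the highest or lowest animal stood apart from the nearest other. The gap there was more than Dixon's 95% critical share of the group's range. Over all 58 members 18 of 116 groups were flagged. For a single group chance gives this about 1 time in 20. The groups share animals and some genes were named for their spread, so the counts are a description. Ex 7 and Sed 1 accounted for 10 of the 15 as the highest animal. Ex 7 stood apart with 6.05 log2 for CXCL8, 6.40 for IL6 and 6.12 for CCL3L1. Sed 1 stood apart with 6.40 for CXCL8, 11.46 for CCL2, 8.53 for CCL8, 6.15 for IL1A, 7.07 for IL1B, 6.83 for IL18 and 6.91 for IL2RG. Ex 7 was also the lowest exercised animal for CXCR4, at 6.67.

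Ex 4 stood apart as the highest exercised animal for CXCL14, at 5.16 log2, and without it the difference between exercised and sedentary pigs was -0.70 (limma adjusted p = 0.0039). Sed 4 was the highest sedentary animal for IL12B, at 4.77, and without it the difference was -0.19 (limma adjusted p = 0.0682). Sed 8 was the lowest sedentary animal for CXCL9, at 5.62, and Ex 3 the lowest exercised animal for CCR3, at 3.87.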

How the results depend on the processing

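Of 1110 values of named genes under other settings, 1051 kept their side of the threshold, 46 calls were lost, 13 were gained and 0 called values changed sign. Trended and robust eBayes, no sex term and the spike-in set as a block each left the 9 training calls as they were. So did quantile normalization and median centring, which could change little, as every array already had the same median, 6.24 log2, and range. With only probe sets above the 40th percentile tested, 631 probe sets and 2 members passed, CCL27 and IL17B, and above the 60th percentile 77 and 0. The first filter left 3 of the 9 called members to test, of which IL12RB2 was lost (adjusted p = 0.0532), and the second left none. With array weights all 9 passed, with CCL24. Within set B alone, with 2 exercised and 3 sedentary pigs and no sex term, 10 probe sets and 0 members passed. All 9 called members kept their sign there. Within set A 6 members passed, CCL27, CCL28, CCL3L1 and PTX3 of the 9, with CCL24 and IL6. Averaging a gene's probe sets, which gives no count of probe sets, lost CXCL14, IL17B and PTX3, the called members with several probe sets. The other 6 of the 9 still passed, but each has a single probe set, so averaging could not change its signal. Leaving out 1 array gave 6 (without Ex 1) to 11 members (without Sed 8) and 2513 to 3108 probe sets.

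In females 6 members passed with array weights (CCL24, CCL27, CCL3L1, CCR7, IL17B and PTX3) and 0 above the 60th percentile. In males 1 passed above the 40th percentile and 0 above the 60th. Between the sexes 1 passed with array weights, CCL24. The cause was not tested. The animals share replicate numbers in their titles, but only 6 of 8 same-numbered pairs had deviations from the group means that correlated above 0.1, and 2 of the 8 exercised animals correlated best with their own number. With the replicate block, in a model that also had no sex term, 8 members and 3822 probe sets passed. CXCL14 did not (limma adjusted p = 0.0617). Replicate numbers 6 and 8 each joined a female and a castrated male.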

Other observations

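The interleukin and chemokine genes nearest to CCL27 and CCL3L1 on the genome did not pass for training. In the RefSeq table of assembly Sscrofa11.1, used only for gene order, CCL27 and IL11RA lie next to each other with 0 protein-coding genes between, and their differences between exercised and sedentary pigs were 0.64 log2 (limma adjusted p = 3.13e-05) and -0.13 (adjusted p = 0.726). The lymph node chemokine genes CCL19 and CCL21, named here only for their position, lie on the other side of CCL27, with differences of 0.06 and 0.15 and without passing. CCL4 and CCL3L1 are neighbours too, with -0.08 (adjusted p = 0.945) and 0.40 (adjusted p = 0.0121). IL1B and IL1A, also adjacent, had differences of -0.44 and 0.19, neither passing.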
